A study of Homo sapiens with 4 samples.

Results

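The 9 genes described here are the complement components C3, CFB, CFI, C1R and C1S, the complement inhibitor SERPING1, and the membrane regulators CD46, CD55 and CD59. They are 9 of the 56655 gene symbols counted in the RNA-seq libraries, and all 9 were among the 16417 genes with enough counts to be tested. They were selected on gene symbol, but the set was chosen from earlier results on these same libraries. Their shFOXK2 against shCtrl values are therefore given as a description with no test.

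RNA was measured in OVCAR5 cells, an established ovarian cancer cell line that the labels place in high grade serous disease, grown in RPMI medium with serum. Both groups carried a stably transduced lentiviral hairpin and were selected with puromycin, a nontargeting hairpin in shCtrl (n = 2 libraries) and a hairpin against the transcription factor gene FOXK2 in shFOXK2 (n = 2 libraries). The study asked how lowering FOXK2 changes the transcriptome of these cells. The shFOXK2 libraries are from 1 hairpin, and they are bulk cultures, so fewer cells making a transcript and less transcript per cell cannot be told apart.

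The libraries held from 14284005 to 21950873 counts. A count of 3 corresponded to between 0.134 and 0.211 CPM (counts scaled to library size), the smallest level the depth could show. Replicates were not copies of one another: a chi-square comparison gave 38.1 per gene between the controls and 27.9 between the shFOXK2 libraries, and sampling alone would give about 1. FOXK2 itself had 1796 and 1499 counts in the controls, against 1086 and 1084 with shFOXK2. In CPM it was at 80.5 and 93.4 in shCtrl and at 76.4 and 59.6 in shFOXK2. The log2 fold change (log2FC) was −0.36 (SE 0.25, adjusted p-value 0.257 by the edgeR quasi-likelihood test), so its decrease did not pass the threshold in this test. Corrected for the A content of transcripts, the FOXK2 log2FC was −0.02 (adjusted p-value 0.931). By quantitative PCR and Western blot, the study reported less FOXK2 mRNA and protein in OVCAR5 cells with shFOXK2.

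By GENCODE v44 (hg38), C3 spans chr19:6677704-6730562 on the minus strand, CFB chr6:31945650-31952086 on the plus strand and CFI chr4:109731008-109802150 on the minus strand. C1S (chr12:6988259-7071032, plus) and C1R (chr12:7080214-7092540, minus) are neighbours, as are, at more distance, CD55 (chr1:207321519-207386804, plus) and CD46 (chr1:207752037-207795513, plus). SERPING1 (chr11:57597387-57619171, plus) and CD59 (chr11:33703010-33736479, minus) lie on one chromosome.

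Complement is a cascade of blood and tissue proteins that tags surfaces for removal and can puncture membranes. The classical pathway begins when antibody-bound C1q switches on the proteases C1r and C1s, the alternative pathway runs through C3 and factor B, and both cleave C3, the protein on which the pathways converge. Cells hold the cascade in check with soluble inhibitors, such as C1 inhibitor and factor I, and with proteins on their own surface. The liver makes most of the circulating components, and epithelial cells also make several of them locally.

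C3 was the most abundant of the 9 transcripts in control cells and differed most between groups. C3 was counted 33428 and 24724 times in the controls, against 150 and 41 times with shFOXK2. Both shFOXK2 libraries lay far below both controls, and they also differed from each other. Scaled to library size, C3 was at 1519 ± 29.5 CPM in shCtrl and at 6.4 ± 5.86 CPM in shFOXK2 (SD, n = 2 each), or 0.421% of the control level. The fitted log2FC was −7.92 (SE 0.58). Among all 16417 tested genes, 13 had a log2FC as low or lower, C3 included. C3 ranked 40 and 48 by CPM among all symbols in the controls, and 9205 and 12654 with shFOXK2. Its share of all counts was 0.152% (95% Wilson interval 0.151 to 0.154) and 0.147% (0.145 to 0.149) in the controls. With shFOXK2 the shares were 0.00105% (0.000895 to 0.00123) and 0.000231% (0.00017 to 0.000314). The intervals cover counting error only and did not overlap between the shFOXK2 libraries, where replicate 1 held 4.68 times the CPM of replicate 2. The size of the difference thus depended on the library, with a log2FC of −9.39 without shFOXK2 replicate 1 and −7.21 without shFOXK2 replicate 2. In GENCODE v44, an unnamed noncoding gene on the same strand shares 11.7% of the exonic bases of C3.

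CFB encodes factor B, the protease that joins C3 in the alternative pathway convertase. Its counts were 314 and 216 in the controls, against 4 and 8 with shFOXK2. The groups did not overlap, and CFB was at 13.8 ± 0.438 CPM in shCtrl and 0.360 ± 0.112 CPM in shFOXK2 (SD, n = 2 each), a log2FC of −5.20 (SE 0.43). In GENCODE v44, 42.3% of the exonic bases of CFB also belong to another, unnamed protein-coding gene on the same strand. Counters that discard ambiguous reads would lower the count of CFB in every library where such a gene was in the annotation used.

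C1R and C1S encode the paired proteases of the C1 complex and lie beside each other on chromosome 12. The C1R counts were 1264 and 927 in the controls, against 23 and 29 with shFOXK2. The C1S counts were 1622 and 1132 in the controls, against 25 and 42 with shFOXK2. Both genes were lower in both shFOXK2 libraries than in either control, by nearly the same amount. C1R was at 57.2 ± 0.770 CPM in shCtrl and 1.61 ± 0.0168 CPM in shFOXK2, and C1S at 71.6 ± 1.55 and 2.03 ± 0.389 CPM (SD, n = 2 each). The log2FC values were −5.15 (SE 0.32) for C1R and −5.12 (SE 0.32) for C1S. The ratio of C1S to C1R counts was 1.28 and 1.22 in shCtrl and 1.09 and 1.45 in shFOXK2, so the range in shFOXK2 spanned that of the controls. The neighbour C1RL overlaps C1R at its 5′ end and covers 11.6% of the exonic bases of C1R on the same strand.

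SERPING1 encodes C1 inhibitor, the serpin that inactivates C1r and C1s. Its counts were 765 and 555 in the controls, against 43 and 71 with shFOXK2. SERPING1 was at 34.4 ± 0.20 CPM in shCtrl and 3.46 ± 0.621 CPM in shFOXK2 (SD, n = 2 each), 10.1% of control, with a log2FC of −3.31 (SE 0.31). The inhibitor was therefore lower together with the proteases it binds, but to a smaller extent: C1R counts were 1.65 and 1.67 times the SERPING1 counts in shCtrl and 0.535 and 0.408 times in shFOXK2.

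CFI encodes factor I, the serum protease that cleaves C3b with the help of cofactors such as CD46. It was the secreted member whose groups overlapped. The CFI counts were 672 and 362 in the controls, against 243 and 508 with shFOXK2. Scaled to library size, the shFOXK2 libraries stood at 17.1 and 27.9 CPM and the controls at 30.1 and 22.6 CPM, so shFOXK2 replicate 2 lay above shCtrl replicate 2. The log2FC was −0.23 (SE 0.30). It turned to 0.08 without shFOXK2 replicate 1, and was −0.67 without shFOXK2 replicate 2 and −0.82 when the A content of transcripts was corrected for. Another unnamed protein-coding gene on the same strand shares 29.4% of the exonic bases of CFI.

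**Figure D1:**
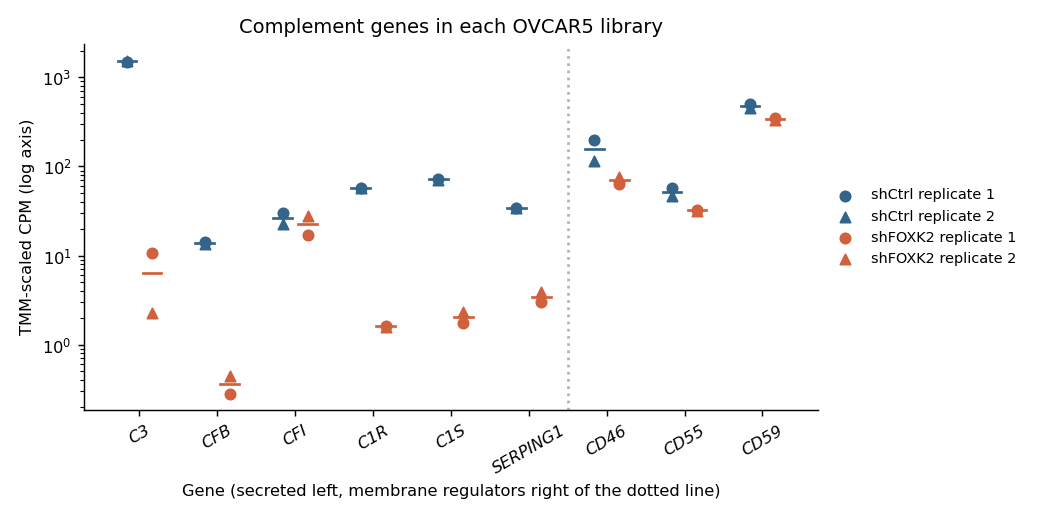
Level (CPM) of the 9 genes in each of the 4 libraries on a log axis. Points are libraries and short lines are group means (n = 2 each). C3, CFB, C1R, C1S and SERPING1 sit far lower in shFOXK2, the membrane regulators are lower by less, and the CFI libraries overlap.

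The membrane regulators protect the cells that carry them. CD46 is a transmembrane cofactor for factor I, CD55 speeds the decay of C3 and C5 convertases, and CD59 blocks the membrane attack complex. CD55 and CD59 are held in the membrane by a glycosylphosphatidylinositol (GPI) anchor.

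MIR29B2CHG, a noncoding gene on the opposite strand, shares 5.14% of the exonic bases of CD46. CD46 had 4362 and 1851 counts in the controls, against 903 and 1383 with shFOXK2. It was at 196 and 115 CPM in the controls and at 63.5 and 76.0 CPM in shFOXK2, so the controls were the more spread of the groups and did not overlap with shFOXK2. The log2FC was −1.16 (SE 0.28). It was −0.77 without shCtrl replicate 1, −1.49 without shCtrl replicate 2 and −1.51 with the correction for A content.

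CD55 had 1262 and 756 counts in the controls, against 460 and 578 with shFOXK2. The level was 51.8 ± 6.70 CPM in shCtrl and 32.1 ± 0.414 CPM in shFOXK2 (SD, n = 2 each), 61.8% of control, with a log2FC of −0.69 (SE 0.25). With the correction for A content the value was −1.21.

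CD59 had 11238 and 7298 counts in the controls, against 5029 and 6046 with shFOXK2. The level was 479 ± 34.7 CPM in shCtrl and 343 ± 15.1 CPM in shFOXK2 (SD, n = 2 each), 71.6% of control. The log2FC of −0.48 (SE 0.23) was the smallest of the membrane regulators in size, and it was −0.21 with the correction for A content. The ratio of CD59 to CD55 counts was 8.90 and 9.65 in shCtrl and 10.9 and 10.5 in shFOXK2. An unnamed protein-coding gene on the same strand shares 5.96% of the exonic bases of CD59.

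For 8 of the 9 genes the groups did not overlap and shFOXK2 was the lower, CFI being the exception. The same was true of 36.2% of all 16417 tested genes. Because the set was chosen with this contrast known, nothing is read from that count. The 9 log2FC values had a median of −3.31, beside 0.04 for all tested genes.

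**Figure D2:**
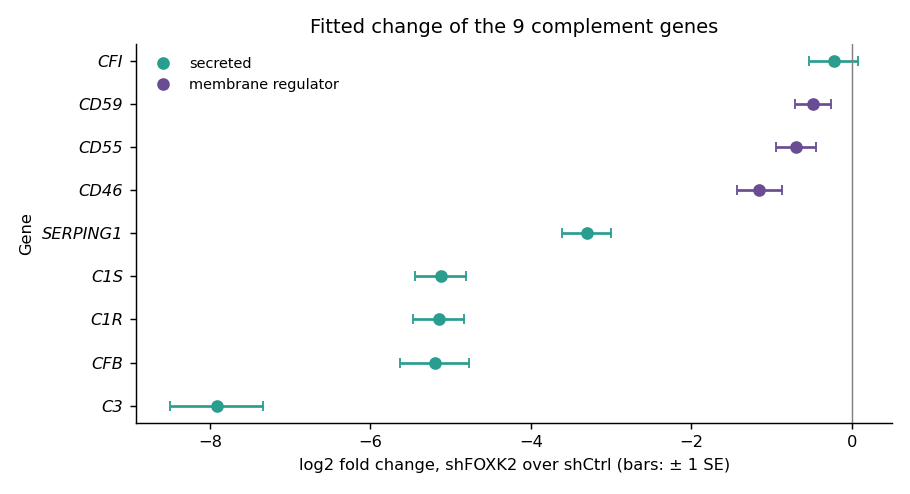
Fitted log2FC of shFOXK2 over shCtrl for each of the 9 genes, with bars of 1 SE on either side. The values run from −7.92 for C3 to −0.23 for CFI, and the membrane regulators lie between −1.16 and −0.48.

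The secreted genes were next set against the membrane regulators within each library. The secreted genes include SERPING1 and CFI, which encode soluble inhibitors, at log2FC values of −3.31 and −0.23. The other secreted genes ran from −7.92 to −5.12. The contrast is thus not one of secretion alone. The median log2FC was −5.14 for the 6 secreted genes and −0.69 for the 3 membrane regulators. The secreted genes averaged 6.07 and 5.99 log2 CPM in the controls, against 1.59 and 1.54 with shFOXK2. For the membrane regulators it was 7.47 and 7.08 in shCtrl and 6.49 and 6.54 in shFOXK2. The secreted mean minus the membrane mean therefore went from −1.40 and −1.09 in shCtrl to −4.91 and −5.00 in shFOXK2. The groups thus differed by −3.71 log2 units, which is a description with no test, since the genes were chosen with this contrast known. The value was −2.95 with C3 left out of the secreted genes, and −4.55 with CFI left out. Summed over the 6 secreted genes, the level was 1710 and 1740 CPM in the controls, against 34.3 and 38.4 CPM with shFOXK2. Summed over the membrane regulators, it was 756 and 617 CPM in shCtrl and 449 and 440 CPM in shFOXK2.

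**Figure D3:**
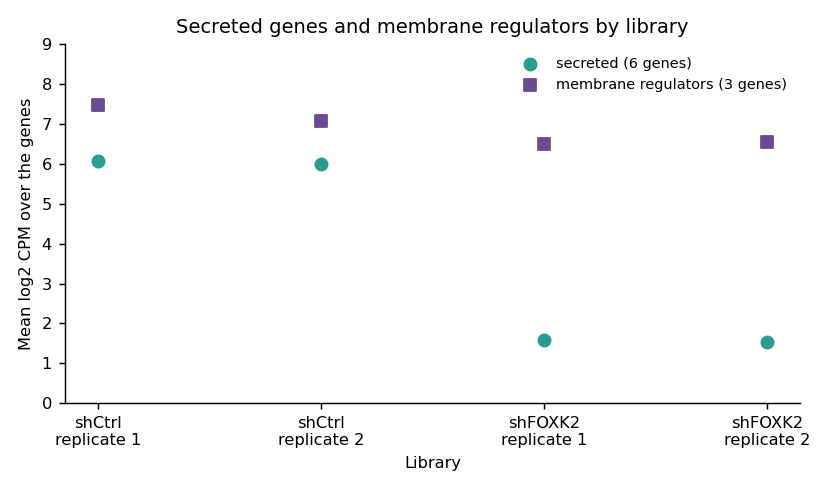
Mean log2 CPM of the 6 secreted genes (circles) and the 3 membrane regulators (squares) in each library. The secreted mean is near 6 in both shCtrl libraries and below 2 in both shFOXK2 libraries, while the membrane mean stays between 6.49 and 7.47.

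Levels of different genes can be compared only after scaling to transcript length, here as CPM per kb of the canonical GENCODE v44 transcript. In shCtrl, C3 came first at 290 ± 5.65 CPM per kb, followed by CD59 at 63.4 ± 4.59 and CD46 at 46.8 ± 17.1 (SD, n = 2 each). The difference between the means of CD59 and CD46 was smaller than the SD of CD46. Within each control library CD59 was the higher, at 66.6 against 58.9 in replicate 1 and 60.1 against 34.7 in replicate 2. Then came C1S at 26.7 ± 0.577, C1R at 23.0 ± 0.309, CD55 at 20.0 ± 2.59 and SERPING1 at 18.8 ± 0.109 CPM per kb. The libraries of CD55 spanned those of SERPING1, so the order of these neighbours is not set. CFI followed at 13.3 ± 2.71 and CFB was last at 5.56 ± 0.177 CPM per kb.

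In shFOXK2, CD59 came first at 45.3 ± 2.00 CPM per kb and CD46 next at 21.0 ± 2.66 (SD, n = 2 each). CD55 at 12.4 ± 0.16 and CFI at 11.4 ± 3.87 CPM per kb did not differ beyond the spread of CFI. SERPING1 at 1.89 ± 0.339, C3 at 1.22 ± 1.12, C1S at 0.758 ± 0.145 and C1R at 0.645 ± 0.00676 CPM per kb followed. The C3 libraries, at 2.02 and 0.431 CPM per kb, spanned C1S and C1R and overlapped SERPING1. CFB was again last at 0.146 ± 0.0452 CPM per kb. Thus C3 went from the first position in control cells to the sixth in shFOXK2, where CD59, CD46, CD55 and CFI all exceeded it in both libraries.

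**Figure D4:**
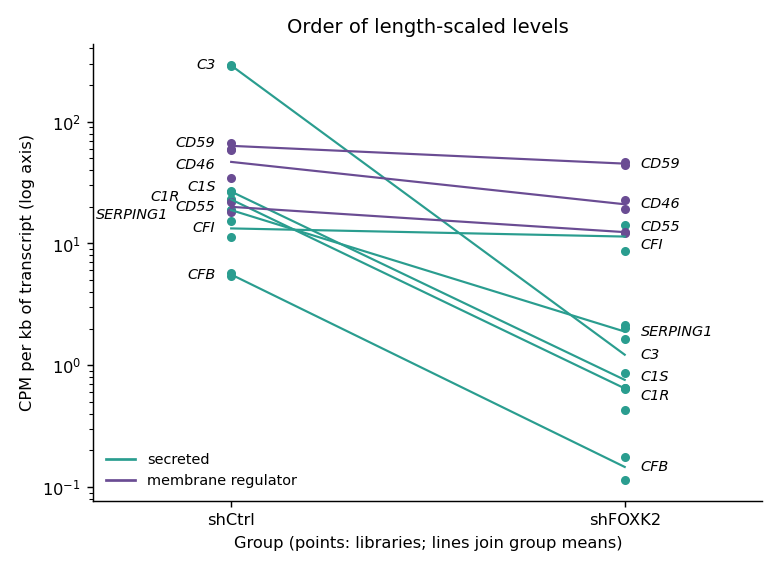
Length-scaled level of each gene (CPM per kb of transcript, log axis) in shCtrl and shFOXK2. Points are libraries and lines join the group means. C3 drops from 290 to 1.22 CPM per kb and crosses the membrane regulators, whose lines are less steep.

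Promoter windows were read for short motifs. Of the 9 genes, CFB, CFI, C1R, CD46, CD55 and CD59 were in the RefSeq promoter table of GRCh38.p14, and C3, C1S and SERPING1 were not matched. Among the secreted genes that were lower, only CFB and C1R thus had a window. Whether those genes share motifs could not be judged. Windows were the 250 bases before the start of the gene in RefSeq, and motifs were searched on both strands. RefSeq starts can differ from the ends of the GENCODE v44 spans given above: the CFB window lies wholly inside the GENCODE span of CFB, those of CFI, C1R and CD55 run into their spans, that of CD46 does so by 1 base, and that of CD59 lies outside. The forkhead motif TGTTTAC was in none of the 6 windows, and it is in 2.98% of the 27305 windows in the table. The NF-kB motif was also in none, against 5.05% of all windows. The C/EBP motif TTGCNNAA was in the window of C1R, against 9.13% of windows. The STAT motif TTCNNNGAA was in those of CFB and CD59, against 6.78% of windows. The interferon response motif TTTCNNTTT was in that of CFB, against 9.28% of windows. A match is a description of letters, and a window with none says only that these letters are not there.

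The stretches of these windows that no annotated exon covers are shown for CFB and C1R, which were lower in shFOXK2, and for CFI, which was not separated between groups. Capitals mark the interferon response match in CFB and the C/EBP match in C1R, and the CFI stretch holds no match. CFB is at chr6:31945845-31945974 on the plus strand, C1R at chr12:7092541-7092695 on the minus strand and CFI at chr4:109802151-109802249 on the minus strand of GRCh38.p14.
CFB: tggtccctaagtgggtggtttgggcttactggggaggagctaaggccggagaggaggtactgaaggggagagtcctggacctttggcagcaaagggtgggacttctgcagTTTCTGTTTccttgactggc
C1R: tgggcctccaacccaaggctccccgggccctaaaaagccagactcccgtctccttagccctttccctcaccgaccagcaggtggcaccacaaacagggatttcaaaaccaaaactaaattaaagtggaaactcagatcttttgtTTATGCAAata
CFI: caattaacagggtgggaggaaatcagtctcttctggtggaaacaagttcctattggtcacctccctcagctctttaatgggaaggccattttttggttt

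The rest of the complement system was examined through 49 further genes. All 49 are in the count tables, but 15 had no count in any library, among them the C1q chain genes C1QA, C1QB and C1QC and the terminal components C6, C8A, C8B and C9. A count of 0 allows a level of up to 0.134 to 0.211 CPM, depending on the library. A further 17 had a few counts without passing the filter, including C2, with 14 and 8 counts in the controls, against 8 and 8 with shFOXK2. Of the 17 tested genes, 7 fell and 3 rose at an adjusted p-value under 0.05, beside 22.7% of all tested genes that fell and 25.7% that rose. Their median log2FC was −0.40. These genes, too, were chosen with earlier results of these data known, so nothing is read from the counts.

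Early components were among those that fell. C1RL, a protease-like relative of C1R, was at 57.8 ± 2.93 CPM in shCtrl and fell to 18.9 ± 4.01 CPM (SD, n = 2 each), with a log2FC of −1.61 (SE 0.27, adjusted p-value 0.000341). It shares exonic bases with C1R. The near-identical paralogs C4A and C4B, whose protein forms part of the classical C3 convertase, also fell. C4B had 53 and 49 counts in the controls, against 12 and 4 with shFOXK2, with a log2FC of −2.40 (SE 0.54, adjusted p-value 0.00247). C4A had 21 and 20 counts in the controls, against 3 and 0 with shFOXK2 (adjusted p-value 0.00289), and reads that fit both copies cannot be assigned to either. CFD, the protease that activates factor B, was at 12.7 ± 2.30 CPM in shCtrl and 6.14 ± 1.15 CPM in shFOXK2, with a log2FC of −1.05 (SE 0.32, adjusted p-value 0.0153). This call was lost without shCtrl replicate 2 (0.0965) and without shFOXK2 replicate 2 (0.0599).

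Soluble regulators and receptors moved in different ways. C4BPA, a chain of the C4b-binding protein, had 225 and 149 counts in the controls, against 7 and 3 with shFOXK2, a log2FC of −4.92 (SE 0.49, adjusted p-value 8.11e-06). VTN, which encodes the terminal pathway inhibitor vitronectin, had 32 and 31 counts in the controls, against 5 and 9 with shFOXK2. Its log2FC was −1.94 (SE 0.49, adjusted p-value 0.00515). ITGAM, a chain of complement receptor 3, had 161 and 130 counts in the controls, against 3 and 22 with shFOXK2, a log2FC of −3.35 (SE 0.52, adjusted p-value 0.000205). Its size depended on which shFOXK2 library was used: ITGAM was at −5.17 when replicate 2 was left out and at −2.66 when replicate 1 was.

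The 3 genes that rose were at low levels, as were C4A, C4B and VTN among those that fell. C5AR1, the receptor of the C5a fragment, had 30 and 12 counts in the controls, against 42 and 51 with shFOXK2, a log2FC of 1.42 (SE 0.42, adjusted p-value 0.0126). C5, the component cleaved after C3, had 49 and 11 counts in the controls, against 42 and 71 with shFOXK2, with 1.21 (SE 0.47, adjusted p-value 0.0495). CFP, which encodes the alternative pathway stabilizer properdin, had 12 and 8 counts in the controls, against 12 and 44 with shFOXK2, with 1.67 (SE 0.55, adjusted p-value 0.022). Each of these calls was lost without at least 1 of the libraries. Without shFOXK2 replicate 2 the log2FC of CFP was 0.65 (adjusted p-value 0.467) and that of C5 0.93 (0.0666). CFP also lost its call without shCtrl replicate 1 (0.0703) and without shCtrl replicate 2 (0.0673). Without shCtrl replicate 2, C5 was at 0.64 (0.35) and C5AR1 at 1.09 (0.13). DESeq2 called none of the 3. C5 also lost its call with library size alone (0.0923) and with the correction for A content, where its log2FC was 0.47 (adjusted p-value 0.367).

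The other 7 tested genes did not pass. CLU, which encodes the fluid-phase regulator clusterin, was at 53.0 ± 5.95 CPM in shCtrl and 51.3 ± 21.6 CPM in shFOXK2 (log2FC −0.05, adjusted p-value 0.916). C1QBP and ITGAX had log2FC values of −0.01 and −0.15 (adjusted p-values 0.971 and 0.702). MASP2, C4BPB, C3AR1 and ITGB2 had values of −0.15, −0.40, −0.42 and 0.63 (adjusted p-values from 0.247 to 0.818).

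**Figure D5:**
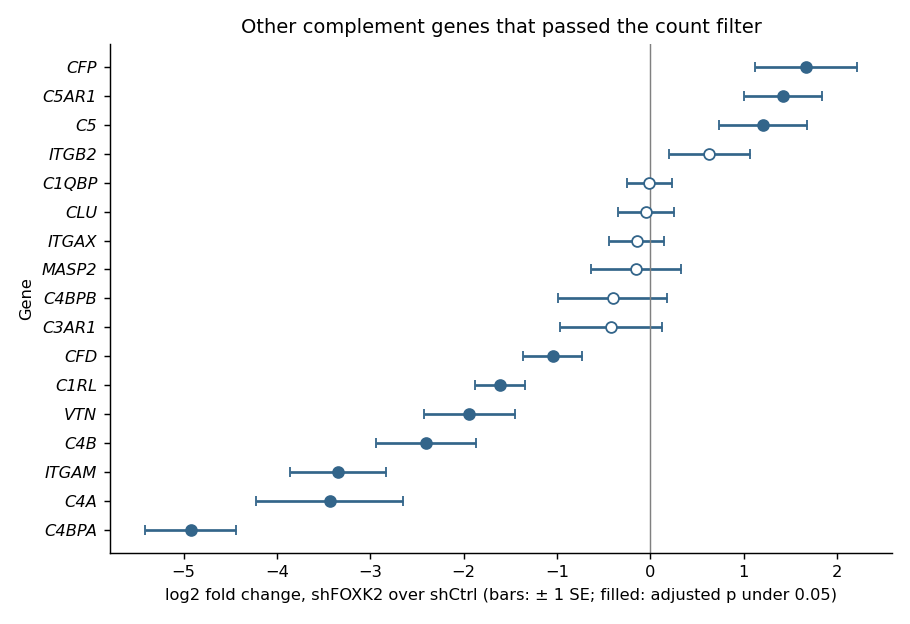
Log2FC of the 17 tested complement genes outside the set of 9, with bars of 1 SE on either side and filled points for an adjusted p-value under 0.05. The 7 filled points on the left run from −4.92 (C4BPA) to −1.05 (CFD), and the 3 on the right are C5, C5AR1 and CFP.

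Factors known to switch on complement genes were compared next. C/EBP factors, NF-kB, STAT proteins and IRF1 carry inflammatory and interferon signals to promoters of this kind. All 6 listed genes fell, beside 22.7% of all tested genes, and their median log2FC was −1.10. This list was chosen with earlier results of these data known, so nothing is read from that count. CEBPB had 3676 and 3309 counts in the controls, against 779 and 620 with shFOXK2, a log2FC of −2.06 (SE 0.28, adjusted p-value 7.98e-05). CEBPD had 2497 and 2217 counts in the controls, against 490 and 741 with shFOXK2, with −1.73 (SE 0.25, adjusted p-value 0.000135). NFKB1, RELA, STAT3 and IRF1 had log2FC values of −1.14, −1.06, −0.97 and −1.06, with adjusted p-values from 0.00177 to 0.00479. Their part in the differences of the complement genes was not tested.

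Since CD55 and CD59 reach the surface on a GPI anchor, the 29 listed genes of anchor synthesis were also counted. Of 28 tested, 8 fell, 4 rose and 16 did not pass, with a median log2FC of −0.19, beside 22.7% of all tested genes that fell and 25.7% that rose. Since the anchor genes were also listed with earlier results of these data known, nothing is read from these counts. The falls with the smallest adjusted p-values were PIGT, PIGS and PIGO, with log2FC values of −1.81, −1.61 and −1.46 (adjusted p-values 7.74e-05, 0.000155 and 0.000431). PIGT and PIGS encode subunits of the transamidase that joins anchor to protein, and PIGO adds an ethanolamine phosphate to the anchor. Among those that rose, PIGW, DPM2 and PIGQ had values of 0.85, 0.74 and 0.70 (adjusted p-values 0.0136, 0.033 and 0.0345). With the replicate number as a block, DPM2 and PIGQ no longer passed (0.0694 and 0.0779), and 2 genes rose. DPM2 and PIGQ also lost their calls without shCtrl replicate 1 (0.116 and 0.143) and without shFOXK2 replicate 1 (0.278 and 0.244), and PIGW lost its call without shFOXK2 replicate 1 (0.0779).

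The chromosome neighbours of the 9 genes were read in the same fit. Of 14 flanking tested genes, 7 fell, 3 rose and 4 did not pass, where 22.7% of all tested genes fell and 25.7% rose. C1RL and C4BPA, both in this count of falls, were also counted among the further complement genes that fell. Around C1S and C1R on chromosome 12 the flanking genes were LPCAT3, with a log2FC of −2.33 (SE 0.29, adjusted p-value 4.08e-05), and C1RL. LPCAT3 overlaps the annotated span of C1S on the opposite strand, with 0 exonic bases in common. On chromosome 19, GPR108 overlaps the start of C3, also with 0 exonic bases in common. GPR108 had a log2FC of −1.13 (SE 0.25, adjusted p-value 0.00236). TNFSF14 had 22 and 20 counts in the controls, against 0 and 2 with shFOXK2 (adjusted p-value 0.000901). Beside CFB on chromosome 6, NELFE and ZBTB12 did not pass, with values of −0.04 and −0.43 (adjusted p-values 0.916 and 0.298). CD46 and CD55, which lie in the regulator cluster on chromosome 1, were flanked by C4BPA, at −4.92, and by PLXNA2, which rose with a log2FC of 2.48 (SE 0.40, adjusted p-value 0.000279). These flanking genes were distant: C4BPA lay 607065 bases from CD46 and 176547 from CD55. PLXNA2 lay 226729 bases from CD46 and 635438 from CD55. For CD59 the flanking genes were KIAA1549L, at 0.88 (adjusted p-value 0.0208), and FBXO3, at −0.28 (0.438). The call of KIAA1549L was lost without shCtrl replicate 2 (0.0516) and without shFOXK2 replicate 1 (0.27).

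Among 9916 other genes whose log2 CPM averaged 3 or more, the patterns closest to C3 over the 4 libraries were those of CXCL1, CXCL8 and CCL2, at distances of 0.986, 1.21 and 2.02 on the centred log2 CPM scale. CXCL1 had 3322 and 2543 counts in the controls, against 19 and 8 with shFOXK2. The patterns closest to CD55 were those of PDE8A, MARCH6 and ZSWIM6, at distances of 0.040, 0.0436 and 0.0465. PDE8A had 2643 and 1533 counts in the controls, against 959 and 1214 with shFOXK2.

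Markers of cell types were read beside these results, and their calls stand beside the 22.7% of all tested genes that fell. The marker lists, too, were chosen with earlier results of these data known. The summed level of 5 epithelial markers (EPCAM, KRT8, KRT18, KRT19 and CDH1) was 3590 and 4780 CPM in shCtrl and 3440 and 4640 CPM in shFOXK2. Nearly all of that level was KRT8, KRT18 and KRT19. Of the 5 epithelial markers, 4 did not pass. CDH1 fell, with 459 and 260 counts in the controls, against 13 and 24 with shFOXK2. Of the ovarian serous markers, WT1 had between 0 and 2 counts, so it was near absent, while PAX8 was present with 351 and 335 counts in the controls, against 156 and 162 with shFOXK2. MUC16 had 397 and 145 counts in the controls, against 0 and 8 with shFOXK2. Both PAX8 and MUC16 fell. For leukocytes and macrophages, PTPRC and CD68 had 0 counts in 3 libraries and 3 counts in shFOXK2 replicate 1, and for hepatocytes, ALB had 0, 0, 2 and 1 counts and APOB 0 in all 4.

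The summed level of the 5 leukocyte and macrophage markers was 18.5 and 22.8 CPM in shCtrl and 9.98 and 9.94 CPM in shFOXK2, and 1 of 2 tested markers fell. Nearly all of that level was CD14, which fell from 389 and 358 counts to 124 and 168 (log2FC −1.14, adjusted p-value 0.00566), while CSF1R had a log2FC of 1.08 (adjusted p-value 0.124). For the 5 hepatocyte markers it was 47.3 and 55.7 CPM in shCtrl and 12.5 and 10.0 CPM in shFOXK2, nearly all of it SERPINA1, which fell. The 5 fibroblast markers summed to 20.5 and 18.9 CPM in shCtrl and 16.5 and 13.5 CPM in shFOXK2, with DCN at 0 in 3 libraries. Of the 2 tested fibroblast markers, PDGFRB fell from 127 and 87 counts to 2 and 8 (log2FC −4.16, adjusted p-value 3.32e-05), and COL1A1 did not pass (log2FC 0.03, adjusted p-value 0.951). The 3 endothelial markers summed to 10.6 and 7.72 CPM in shCtrl and 0.633 and 1.98 CPM in shFOXK2, and both tested markers, PECAM1 and CDH5, fell, with CDH5 at 76 and 33 counts in the controls, against 0 and 0 with shFOXK2. The part of these genes in the complement results was not tested.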

How the data were processed

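Per the labels and the study's methods, polyadenylated RNA was made into libraries with the NEBNext Ultra II kit, single-end reads were aligned to hg38 (GRCh38) with STAR 2.5.2, and HTSeq counted reads per gene. The deposited tables, 1 per library, give raw counts by symbol without normalization. The strand setting and annotation of the counting are not given in the sources used here, and reads of overlapping genes on opposite strands cannot be told apart.

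Groups came from the sample titles. Nothing in the labels says what the shared replicate numbers mean, and the series calls the libraries biological duplicates. Genes were filtered with filterByExpr, scaled with TMM and compared in R 4.3.3 by edgeR 4.0.16 (quasi-likelihood F test, 2-sided), with Benjamini-Hochberg adjustment over 16417 genes and a threshold of 0.05. With 2 libraries per group, p-values rest on the sharing of variance between genes. The SE was |log2FC|/√F. CPM are TMM-scaled, and log2 CPM used a prior count of 2. Intervals and floors (3 counts) cover counting error only.

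The members and gene lists were chosen with earlier results of these data known. Some genes of the lists are not reported here and are left out of the lists' counts and medians. Named genes were FOXK2, the 9 members, the most abundant or called listed complement genes, the inducing factors, 3 anchor genes in each direction, the flanking genes of all members but CFI and SERPING1, and the 3 patterns closest to C3 and to CD55. Positions, lengths and base content came from GENCODE v44 (canonical transcripts), with 35754 of 56655 symbols matched. Promoters came from RefSeq (GRCh38.p14). Alternatives were a replicate block, DESeq2 1.42.0, RLE (relative log expression) scaling in edgeR in place of TMM, and library size alone. Others were no filter, a lowess offset on A content (span 0.2) and leaving out each library. A block with crossed numbers was added after seeing the data. The tests were tried on simulated data.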

Additional observations from a re-analysis of the deposited data

How the results depend on the processing

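The median log2 fold change of the secreted genes, −5.14, was −5.22 with DESeq2, −5.15 with RLE scaling and −5.10 with library size alone. It was −5.24 with no filter and −4.83 with the A-content offset. That of the membrane regulators, −0.69, was −1.21 with the A-content offset, and the secreted minus membrane difference of −3.71 was −3.36. Leaving out 1 library gave −5.28 to −4.95, −0.82 to −0.60 and −3.87 to −3.55 for these values. The offset moved all tested genes by a median of 0.149 and no filter by −0.102.

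Further complement genes that rose numbered 3, with DESeq2 0 (1 at an unadjusted p-value under 0.05) and, over the fits without 1 library, 0 to 3. The 0 was without shCtrl replicate 2, where 1 had an unadjusted p-value under 0.05. Anchor genes that rose numbered 4, and 2 with the replicate block, 1 with DESeq2, 2 with no filter, 7 with the A-content offset and 2 to 3 without 1 library. The cause was not tested.

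Same-numbered libraries did not deviate together (correlation −0.113). With the replicate block 7270 genes passed, 7133 of them among the 7940, and with the crossed block 8350. With the block PDE8A (0.0879), MARCH6 (0.0521) and ZSWIM6 (0.0862) did not pass.

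Signs turned for CFI (from −0.67 to 0.08 without 1 library) and, among genes that did not pass, MASP2 (0.16 with the A-content offset, −0.66 to 0.73 without 1 library), CLU (0.00 with library size alone, 0.24 with the offset, 0.07 without shCtrl replicate 2, 0.33 without shFOXK2 replicate 1), ITGAX (0.18 with the offset), C1QBP (0.03 with library size alone, 0.34 with the offset, −0.23 to 0.18 without 1 library, 0.08 of them without shFOXK2 replicate 2) and NELFE (0.00, 0.29, −0.27 to 0.18 and 0.02 in the same order). Over all named genes outside the set of 9, these included, fits with all 4 libraries gave 270 values with the same direction and side of the threshold, 15 that no longer passed, 1 that newly passed and 8 of the other sign. Fits without 1 library gave 137, 24, 0 and 7. Depth limits CFB in shFOXK2, at 4 and 8 counts.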
